A study of Drosophila melanogaster with 120 samples.

Results

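Hemiclone line H07 of Drosophila melanogaster was set against 14 other hemiclone lines (H09, H10, H12, H13, H14, P07, P13, P15, P18, P22, P26, P48, P50 and P56). Its members were the 8 arrays whose titles name H07, 4 of males and 4 of females, of 120 arrays in all; the other lines held 56 male and 56 female arrays. All lines were sampled from LHM, a large outbred laboratory population. Flies of a line carry 1 and the same copy of the X chromosome and of the large autosomes, and their other copy of the genome is drawn at random from LHM, so that a line is 1 cloned haplotype and not an inbred strain. The males came from mothers with a double X (C(1)DX, y, f) and therefore carried the X of their line alone, whereas the females also carried an X from an LHM mother. Chromosome 4, which is small, was not part of the shared haplotype. Each array held the RNA of 6 whole adult flies on day 14, 4 days after they became adult. They had been kept with LHM flies of the opposite sex for 24 hours, were sorted under CO2 after 20 hours more and were frozen 4 hours later. The study chose its lines for opposite or for average fitness in males and females. The class of H07, the meaning of the letters H and P, and the batch of each array are not given in the sources used here. Values are log2 intensities after the authors' normalization, and a difference of 1 on this scale is a 2-fold difference.

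A hemiclone shows how a single haplotype acts in heterozygous flies of both sexes against a varying genetic background. Because males have only 1 X and express it at a raised level through the dosage compensation complex, an X-linked variant of the line is the only copy in its males and 1 of a pair in its females. In whole flies most sex-biased transcripts come from the testis, the accessory glands and the ovary, and a smaller number from the fat body, the gut and the head. Fewer cells of a type and less RNA per cell cannot be told apart in whole flies.

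The sex of all 8 H07 arrays fitted the label. Averaged over the 9 male markers (accessory gland, ejaculatory bulb and sperm transcripts), the 4 male arrays lay between 13.8 and 13.9 and the female arrays between 3.89 and 4.75. Averaged over the 5 female markers found (yolk and eggshell), the 4 female arrays lay between 14.3 and 14.5. The 4 H07 males departed from the other males in much the same way, with correlations of 0.52 to 0.71 between their departures over 18769 probe sets. The H07 females were less alike. Females 1 and 3 departed together (r = 0.53), whereas females 2 and 3 had an r of -0.080. Female 3 stood apart most, with a median departure of 0.73 for muscle genes, 0.59 for digestive enzymes and 0.44 for nervous system genes. The ejaculatory bulb transcript Ebp was at 5.24 and 6.21 in H07 females 1 and 3, and at 3.80 and 3.78 in H07 females 2 and 4, against a range of 3.53 to 5.98 in the other females. Results in females are therefore also given without arrays 1 and 3. With only 2 H07 females left the SEs are wider, so a call can be lost there without a smaller difference.

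The first question was how far H07 stood from the other lines within each sex, and it was answered by the H07 line mean minus the mean of the other 14 line means, tested with limma on 18769 probe sets. In males 4515 probe sets (24.1%) passed an FDR of 0.05, of which 1920 (10.2%) were higher and 2595 (13.8%) lower in H07. In females 854 (4.55%) passed, 406 (2.16%) higher and 448 (2.39%) lower. The unadjusted p was under 0.05 for 34.5% of the probe sets in males and 17.8% in females. The differences were mostly small, with 364 called probe sets (1.94%) at 1.5-fold or more and 91 (0.485%) at 2-fold or more in males, and 108 (0.575%) and 33 (0.176%) in females. The SEs and p-values rest on the spread between the separate groups of flies within a line, pooled over all 15 lines and moderated across probe sets by limma. They are not the spread of the 4 H07 groups alone, and a wider spread among the H07 females is not fully carried by them. In males 3082 probe sets (16.4%) were called and also had an H07 mean outside the range of the other 14 line means, and in females 628 (3.35%). Called or not, the H07 mean lay outside that range for 25.7% of all probe sets in males and 16.2% in females. The 4 H07 arrays did not overlap any of the 56 arrays of the other lines for 127 probe sets (0.677%) in males, 60 higher (0.32%) and 67 lower (0.357%), and for 9 (0.048%) in females, 6 higher (0.032%) and 3 lower (0.016%).

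The balance between higher and lower calls in males depended on how the arrays were scaled. The 4 H07 male arrays had medians of 6.28, 6.38, 6.33 and 6.29, against 6.29 to 6.45 in the other males. With every array centred on its median, 2977 probe sets were higher and 1613 lower in H07 males, and the median difference of all probe sets was 0.061 instead of 0.0030. With the arrays quantile-normalized again within each sex, 2185 were higher and 2195 lower. In females the centred arrays gave 347 higher and 527 lower. Of the 197 values called for the genes chosen by the naming rule, 10 lost their call with centred arrays and 6 with the second quantile normalization. None turned its sign under either scaling. Centring moves all differences of a comparison by the same small amount, so it could hardly turn the sign of a called value. Counts for groups of genes are given with the centred count where it differed clearly. Listed genes have 1 probe set each, whereas all probe sets include those with no symbol and further ones of the same gene. With 1 probe set per gene, 4047 of 11981 genes were called in males (1716 higher, 2331 lower) and 849 in females. The shares of all probe sets printed beside the lists are thus lower than those of all genes.

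Every line was compared with its own 14 counterparts in the same way. The counts of the other lines ran between 901 and 2519 in males, so that H07 had the largest count of the 15 lines, followed by P26. In females P18 had a larger count (1530) than H07, and the other 13 lines ran between 249 and 660. Taking the 14 line means as the unit, so that the spread between lines enters the test, 91 probe sets were called for H07 in males and 13 in females.

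**Figure D1:**
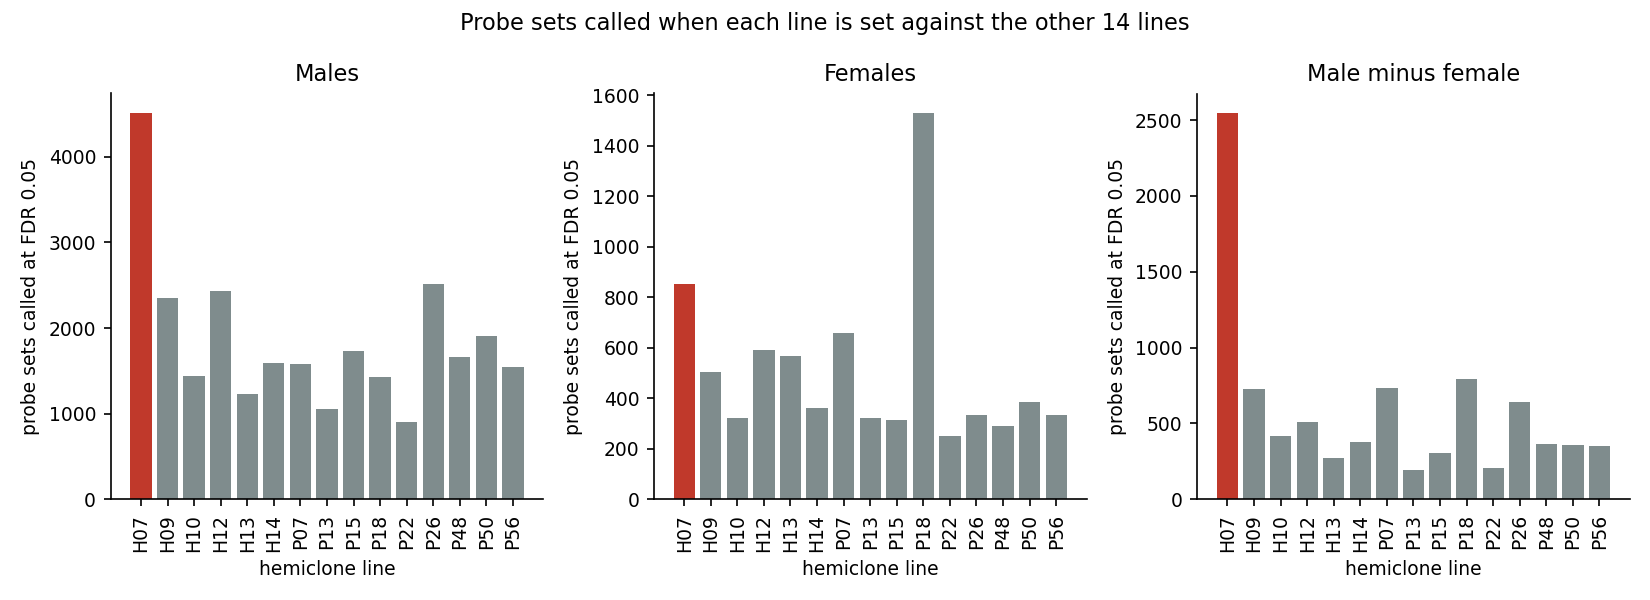
Number of probe sets called at an FDR of 0.05 for each of the 15 lines against the other 14, in males, in females and for the departure of the male minus female difference; each bar is 1 line, with H07 at the left. H07 had 4515 calls in males, 854 in females and 2548 departures, and of the other lines only P18, in females, had a larger count than H07.

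Among the genes that were higher in H07 of both sexes, serine proteases of the gut led. CG18179, a predicted trypsin-like serine protease, read 10.39, 10.18, 9.44 and 10.14 in the H07 males, against a lowest, median and highest value of 5.72, 6.73 and 9.68 in the other males. It read 8.46, 7.99, 9.13 and 8.73 in the H07 females, against 5.94, 6.64 and 7.40 in the other females. All H07 females were above all other females, and the H07 males overlapped only the top of the other males, with H12, at a mean of 9.25, the next line. The difference was 3.05 ± 0.25 (SE) in males (8.30-fold, adjusted p = 8.9e-14) and 1.95 ± 0.15 in females (3.86-fold, adjusted p = 3.3e-13), and it remained 1.73 in females without arrays 1 and 3 (adjusted p = 7.1e-07). The next gene on arm 3L, the related CG18180, was also higher, with 13.46, 13.42, 13.36 and 13.38 in H07 males against 11.26, 12.15 and 13.08 in the other males. Its groups did not overlap in males, and its difference was 1.32 ± 0.13 there and 1.21 ± 0.18 in females. The gene on the other side of CG18179, CG8329, went the other way in males (-0.70 ± 0.14, adjusted p = 1.2e-04), with a difference of 0.12 in females (adjusted p = 0.80).

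Jon44E, a member of the Jonah family of midgut proteases, stood at 10.42, 10.55, 10.40 and 10.34 in H07 males against 6.96, 8.66 and 10.40 in the other males. In females it was at 11.10, 10.15, 11.87 and 10.90 in H07 and at 8.05, 9.48 and 10.67 in the other lines. The groups overlapped at their edges, and the differences were 1.76 ± 0.21 in males and 1.56 ± 0.20 in females. A pair of adjacent X-linked proteases, CG1304 and Ser6, had a different pattern across lines. CG1304 averaged 8.4 ± 0.17 in H07 males (SD, n = 4), and 6 other lines (H09, H10, H12, H13, H14 and P50) averaged 7.32 to 8.91. The remaining 8 lines averaged 3.56 to 3.8. H07 thus belonged to the higher of 2 sets of lines for CG1304, and its difference from the mean of all other lines (2.88 in males, 1.78 in females) was not particular to it. Ser6 was 1.83 ± 0.08 higher in H07 males and 0.95 ± 0.13 higher in H07 females, and its female difference was 0.52 without arrays 1 and 3 (adjusted p = 0.25).

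Over the 50 digestive enzymes measured, 17 were higher and 6 lower in H07 males (median difference 0.13, against 0.0030 over all probe sets), and 17 were higher and 2 lower in H07 females (median 0.25, against -0.023). Of these, 11 were higher in both sexes, with Jon25Bi (1.05 in males, 0.72 in females), Jon65Ai (1.04 and 0.61), Jon99Ci (0.79 and 1.15) and the chitinase Cht9 (0.72 and 1.06) among them, each given for males and then for females. In females this group moved with array 3. Without it 2 of the 50 were higher and 1 lower, and without arrays 1 and 3 only 1 was higher. The lysosomal alpha-mannosidases LManIII, LManIV, LManV and LManVI were also high in array 3. In males LManIV (0.80, adjusted p = 0.0036) and LManVI (0.55, adjusted p = 0.037) were called higher, and LManV (0.49, adjusted p = 0.074) was not. LManIII was called in males as well, a call lost without male 1, 2 or 3. LManIII read 7.78, 6.69, 9.31 and 6.53 in H07 females against 4.38, 5.95 and 7.59 in the other females, a difference of 1.67 ± 0.42 that became 0.70 without arrays 1 and 3 (adjusted p = 1.0). The 6 digestive genes that were lower in H07 males were the lysozyme LysP (-0.84), Cht4 (-0.48), etaTry (-0.40), Mal-A2 (-0.32), lambdaTry (-0.24) and Jon65Aiii (-0.18).

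Several other genes were higher in H07 of both sexes. CG8661 on the X averaged 11.27 ± 0.07 in H07 males, where the other line means ran between 8.84 and 11.02, and its difference was 1.82 ± 0.09 in males and 1.01 ± 0.12 in females. H12 and H13 were the next lines in each sex. CG9682 stood at 9.52, 9.59, 9.81 and 10.05 in H07 males, above all 56 other males (7.88, 8.46 and 9.28). Its difference was 1.24 ± 0.10 in males and 1.14 ± 0.16 in females, the female one being 0.76 without arrays 1 and 3 (adjusted p = 0.15), and its neighbour CG18404 was also higher (0.87 and 0.83). lectin-24A, a C-type lectin, was 1.25 ± 0.31 higher in males and 1.72 ± 0.31 higher in females, and 1.31 in females without arrays 1 and 3 (adjusted p = 0.29).

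Lower values in both sexes were as a rule deeper in males. CG12171 gave the clearest one. It read 9.38, 9.23, 9.16 and 9.26 in H07 males against 9.81, 10.19 and 10.45 in the other males, with no overlap. In females it read 9.54, 10.18, 9.48 and 9.56 in H07 against 10.16, 10.38 and 10.54, so that only female 2 reached the other lines. The differences were -0.93 ± 0.07 in males (1.90-fold lower) and -0.68 ± 0.06 in females (1.60-fold lower), and CG12171 was called in both sexes with line means as the unit. Cyp12a5, a mitochondrial cytochrome P450, fell by 0.86 and 0.61, the snoRNA host gene Uhg3 by 0.68 and 0.61, and the thiol reductase gene GILT3 by 1.04 and 0.71 in H07 males and H07 females. GILT3 averaged 7.12 in H07 males and was also low in males of H12 (7.34) and H13 (7.09), and its female difference was -0.27 without arrays 1 and 3 (adjusted p = 0.96).

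Of the named genes lower in both sexes, CanA-14F, pkm and Cbp80 had the largest male differences, and all are on the X. CanA-14F, which encodes a catalytic subunit of the calcium-dependent phosphatase calcineurin, read 4.48, 4.27, 4.40 and 4.05 in H07 males against 4.58, 6.59 and 7.50 in the other males. H07 males were below every other male, although P07, H10, H13 and H12 were also low, with means of 4.86 to 5.13. The difference was -1.95 ± 0.09 in males and -0.72 ± 0.10 in females, and the female one was -0.40 without arrays 1 and 3 (adjusted p = 0.31). A second probe set of CanA-14F gave -0.30 in males and 0.099 in females (adjusted p = 0.72). pkm read 7.31, 7.34, 7.91 and 7.71 in H07 males, whereas the other males spanned 8.99, 9.34 and 9.73. This gap was not matched in any other line, the difference being -1.78 ± 0.08 in males (3.42-fold lower) and -0.42 ± 0.10 in females. The female call of pkm was lost without female 2 (-0.32, adjusted p = 0.076) or female 4 (adjusted p = 0.062). Cbp80, the large subunit of the nuclear cap-binding complex, read 5.69, 5.59, 5.79 and 5.95 in H07 males against 7.11, 7.41 and 7.73, a difference of -1.64 ± 0.06. Its female difference was -0.48 ± 0.07, and -0.29 without arrays 1 and 3 (adjusted p = 0.22). Its second probe set gave -0.22 in males and 0.17 in females.

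On 2L, l(2)gl, a cell polarity gene and tumour suppressor, read 6.61, 6.98, 7.34 and 7.08 in H07 males against 7.99, 8.38 and 8.91 in the other males, without overlap. It fell by 1.41 ± 0.11 in H07 males and by 0.50 ± 0.08 in H07 females. Its neighbour CR11023 fell by 1.07 ± 0.13 in H07 males, with a difference of 0.0024 in females. Whether these neighbours overlap was not examined here.

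**Figure D2:**
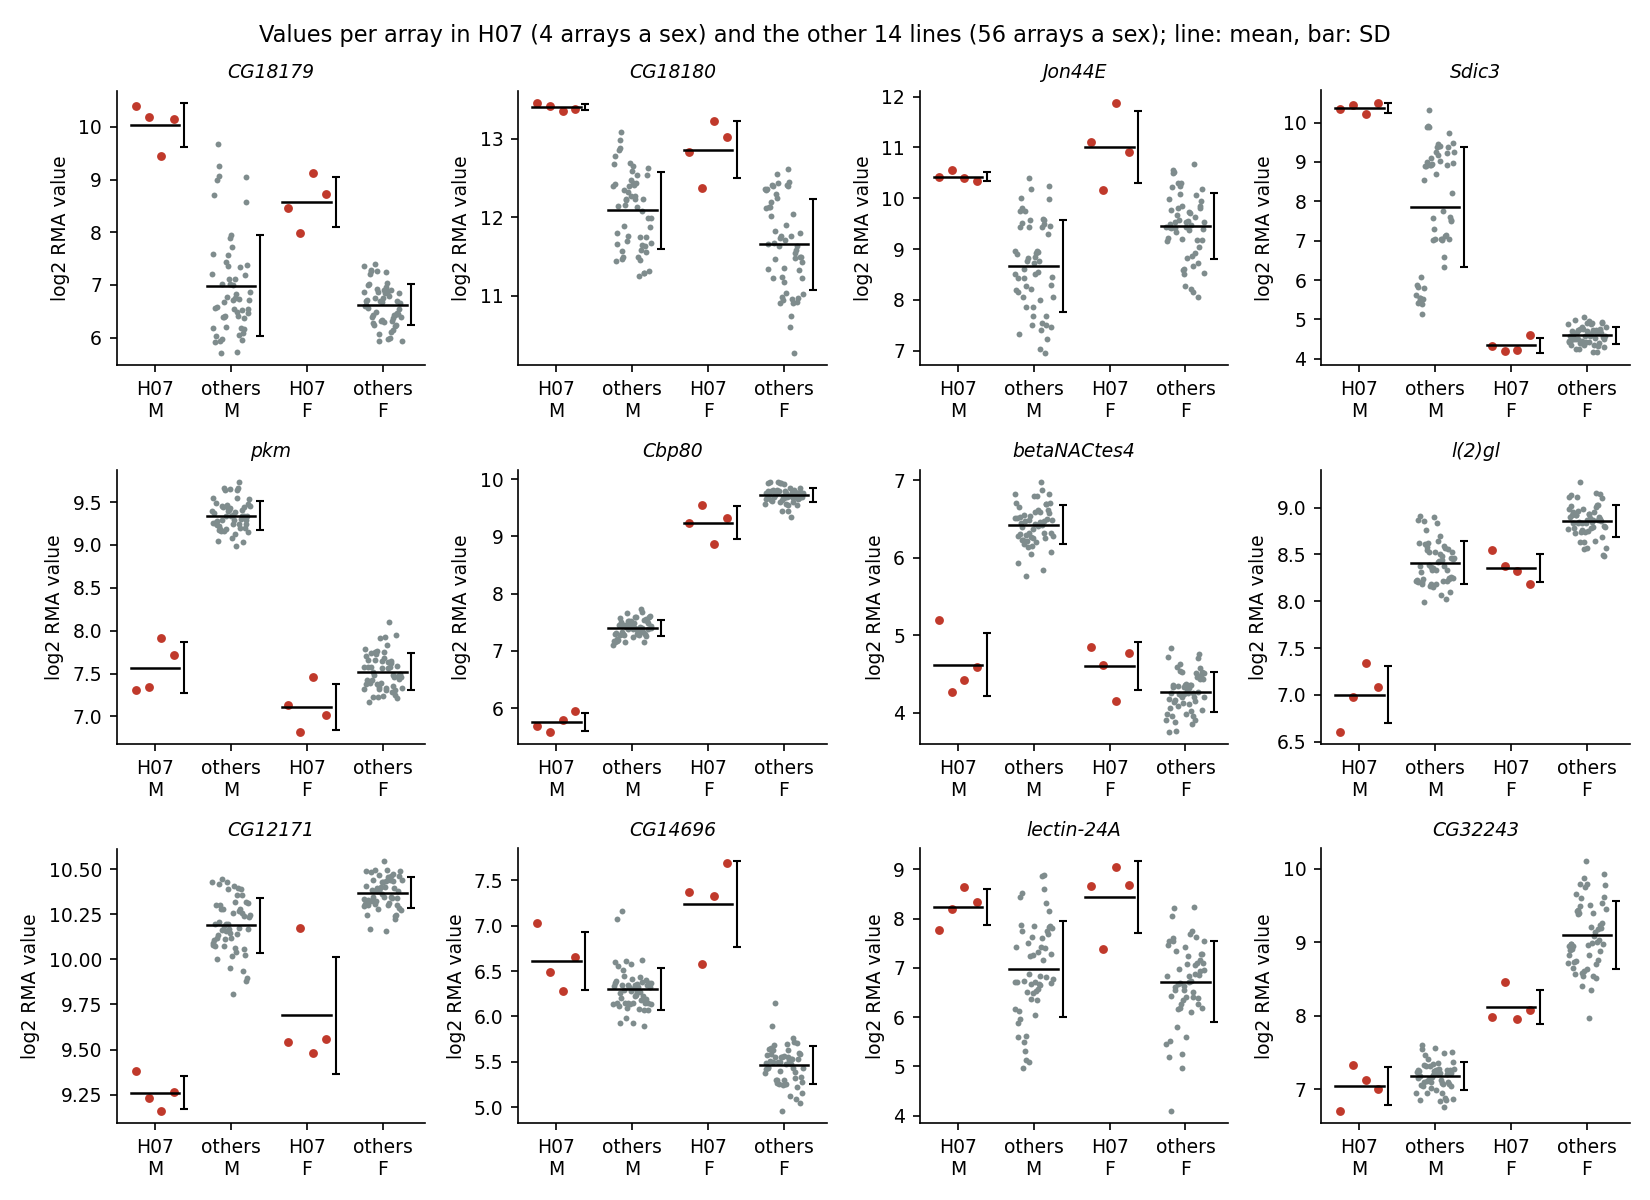
Log2 intensity of 12 genes in each array, with H07 left of the other lines within males and within females; dots are arrays, the line is the mean of the group and the bar its SD. CG18179, CG18180 and Jon44E were higher in H07 of both sexes, and l(2)gl and CG12171 lower in both. pkm and Cbp80 lay below all other males, while their female calls were lost without female 2 or 4 (pkm) or without females 1 and 3 (Cbp80), and betaNACtes4 lay below all other males. Sdic3 lay at the top of the other males, CG14696 above all other females, and CG12171 in female 2 apart from the other H07 females.

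The cytochrome P450 cluster on 2R combined both directions. Cyp6a17 read 8.88, 8.68, 8.95 and 8.84 in H07 males against a range of 8.53 to 10.44, and its neighbour Cyp6a23 read 9.58, 9.76, 9.79 and 9.49 against a range of 7.63 to 10.10. Cyp6a17 was lower (-1.03 ± 0.09 in males, -0.63 ± 0.07 in females) and Cyp6a23 higher (1.25 ± 0.11 and 1.04 ± 0.12), as was Cyp6a9 beside them (0.64 and 0.48). H12 and H14 had the same combination, with Cyp6a17 male means of 8.78 and 8.88 and Cyp6a23 male means of 9.46 and 9.80, while the other 12 lines averaged 9.82 or more for Cyp6a17 and 8.59 or less for Cyp6a23. Genes of this family share sequence, and probes may read more than 1 of them. Cyp6g1, known for its part in resistance to insecticides, was 0.48 higher in males and 0.51 higher in females. Of the 83 P450 genes measured, 10 were higher and 15 lower in H07 males (14 and 12 with centred arrays). This is 30.1% called, against 24.1% of all probe sets. With 1 probe set per gene, as in the list, 4047 of 11981 genes were called in males, a larger share than that of the P450 genes. In addition 9 were higher and 2 lower in H07 females (1 and 2 without arrays 1 and 3), or 13.3% called against 4.55% of all probe sets.

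The sexes shared few of their differences. Of the 18769 probe sets, 362 (1.93%) were called in both sexes with the same direction, 127 higher (0.677%) and 235 lower (1.25%) in H07, and 56 (0.298%) were called in both with opposite directions. The correlation of the male and the female difference over all 18769 probe sets was 0.159, which is a description only, since all probe sets share the same arrays. For 294 of the 362 shared probe sets the test of the difference between the sexes was not passed, and 68 also passed it, of which 53 were lower and 15 higher in H07. Where a difference was shared, it was larger in males for 253 of the 362. These were 196 of the 235 lower but only 57 of the 127 higher probe sets. Without females 1 and 3 the shared count was 45, and without female 3 alone it was 147.

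**Figure D3:**
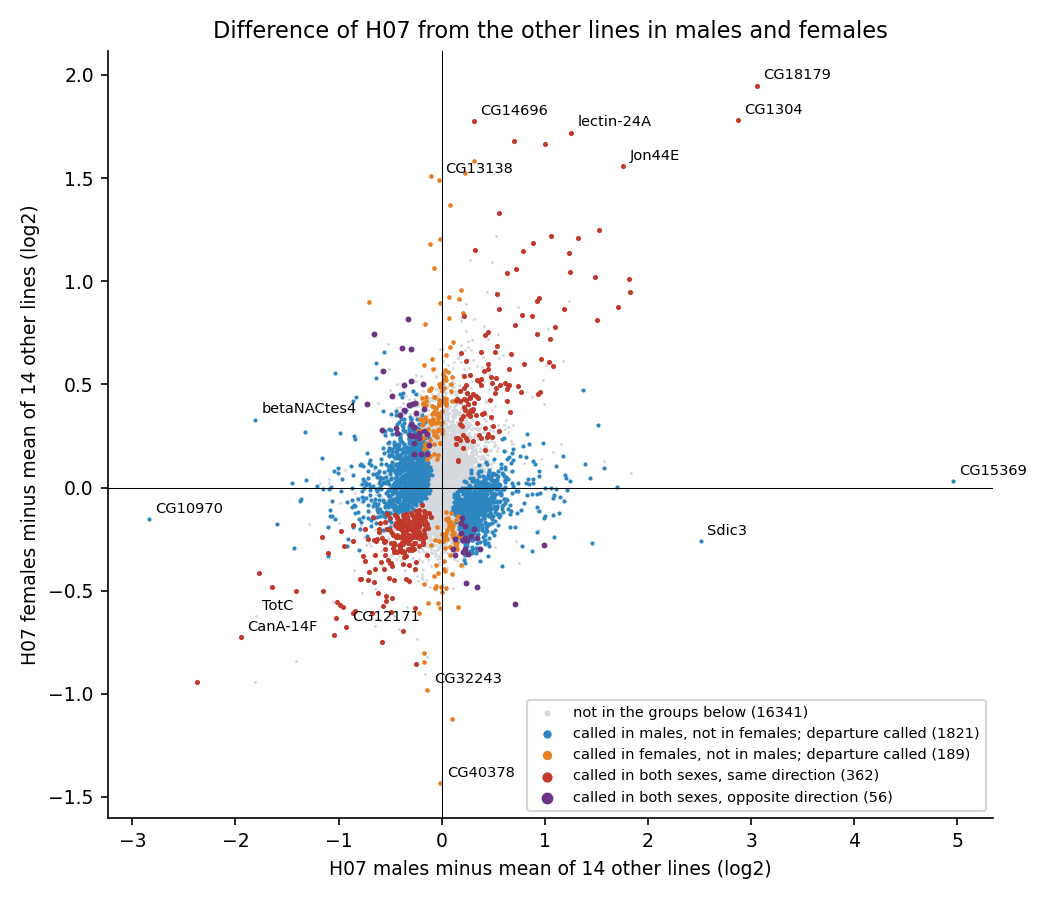
Difference of H07 from the other lines in males (horizontal axis, log2) against that in females (vertical axis, log2) for 18769 probe sets, coloured by where they were called. The 362 shared probe sets lie in the quadrants of equal sign, the 1821 called in males alone with a departure spread along the male axis and the 189 called in females alone along the female axis.

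A call in 1 sex alone does not show that the sexes differ, so the male minus female difference of H07 was tested against the mean of the same difference over the other 14 lines. This departure was called for 2548 probe sets (13.6%), 1098 positive (5.85%) and 1450 negative (7.73%), and for 2120 and 733 with centred arrays. The unadjusted p was under 0.05 for 27.4%. The other lines had 191 to 795 departures. In H07 444 (2.37%) were at least 1.5-fold and 84 (0.448%) at least 2-fold. It included 1821 probe sets called in males and not in females, 189 called in females and not in males, all 56 with opposite directions and 414 called in neither sex. A further 2276 male calls and 247 female calls were made in 1 sex without a called departure. H07 had a wider gap between the sexes for 1166 of the 2548 probe sets, a narrower one for 1120 and a turned sign for 262. Without females 1 and 3 the departures numbered 620.

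CG15369, CG10970 and Sdic3, all on the X, had the departures of largest size among the named genes. CG15369 read 10.85, 11.09, 10.80 and 10.97 in H07 males against 4.13, 4.76 and 11.86 in the other males, and 4.62, 4.59, 4.21 and 5.11 in H07 females against 4.29, 4.57 and 5.13 in the other females. Males of H10 (11.52), H14 (11.05) and P13 (9.14) were also high, and the other 11 lines averaged 4.22 to 5.24. The difference was 4.96 ± 0.11 in males (31.1-fold) and 0.03 ± 0.11 in females, a departure of 4.93 ± 0.15 (adjusted p = 1.8e-48). Females of the lines that were high in males did not stand out. The odorant-binding protein gene Obp8a, which lies 2 genes away, was lower in H07 males (-1.06 ± 0.06), and the lines with low Obp8a were not the same, since P13 had a male mean of 9.08. CG10970 had the reverse pattern, with 4.15, 4.07, 3.85 and 3.83 in H07 males against 3.73, 6.98 and 7.67. Only H09 was as low (3.92), the other 13 lines averaging 6.46 to 7.57. The difference was -2.84 ± 0.11 in males (7.17-fold lower) and -0.15 ± 0.12 in females, so that a male-biased transcript (2.57 in the other lines) was without a sex difference in H07 (-0.12).

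Genes of the testis provided further examples. Sdic3, of the tandem family of sperm dynein intermediate chains at the base of the X, read 10.34, 10.45, 10.21 and 10.49 in H07 males against 5.13, 7.98 and 10.31. H07 had the highest line mean (10.37), H14 followed, and H09, H10 and H12 averaged 5.46 to 5.69. Its male minus female difference was 6.03 in H07 and 3.26 in the other lines, a departure of 2.77 ± 0.18. The copies of this family are nearly identical, so which of them was measured is uncertain. betaNACtes4, a testis paralogue of the beta subunit of the nascent polypeptide-associated complex, read 5.2, 4.27, 4.43 and 4.6 in H07 males against 5.77, 6.45 and 6.98 in the other males. No other male overlapped H07, and the difference was -1.81 ± 0.11. With 0.33 in females the departure was -2.14 ± 0.17, and it was called with line means as the unit. Gas8, an X-linked gene of the axonemal dynein regulatory complex, averaged 7.49 ± 0.08 in H07 males, among 8 lines at 6.80 or above, and differed by 1.24 ± 0.11. CG18539 stood at 6.93, 7.33, 7.24 and 7.60 in H07 males, above all other males (4.90, 5.7 and 6.64). It differed by 1.58 ± 0.12 in males and by 0.09 ± 0.10 in females, and its neighbour CG18540 was 0.62 ± 0.10 higher in males as well.

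Departures also came from females. CG14696 read 7.37, 6.58, 7.33 and 7.69 in H07 females against 4.96, 5.49 and 6.15 in the other females, without overlap. It was 1.78 ± 0.11 higher in females (3.43-fold, adjusted p = 4.1e-17) and 0.32 ± 0.11 higher in males, a call lost without male 1 (0.18, adjusted p = 0.38) or male 4, so that a transcript higher in males of the other lines (0.84) was lower in males of H07 (-0.63). CG13138 read 7.31, 7.07, 7.62 and 7.49 in H07 females against 4.35, 5.92 and 7.35, and differed by 1.49 ± 0.23 in females and -0.03 ± 0.07 in males. Both CG14696 and CG13138 were called in females without arrays 1 and 3 (1.67 and 1.40). tkv, a type I receptor for BMP ligands, was 1.37 ± 0.18 higher in H07 females, where it read 9.22, 8.82, 9.53 and 9.45 against 6.57, 7.96 and 8.80, and its male difference was 0.08 ± 0.13.

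Gnmt, which encodes glycine N-methyltransferase of S-adenosylmethionine breakdown, read 9.54, 8.04, 9.85 and 8.81 in H07 females against 5.75, 7.60 and 9.14. H07 females 1 and 3 were the 2 highest, and the difference of 1.51 ± 0.36 became 0.88 without them (adjusted p = 0.92). ninaD, a scavenger receptor for carotenoid uptake, was 1.58 ± 0.18 higher in H07 females, and 1.09 without arrays 1 and 3 (adjusted p = 0.015). CG11034 was 1.68 ± 0.14 higher in females and 0.70 ± 0.17 higher in males. Without females 1 and 3 the departures of ninaD (-0.78, adjusted p = 0.31) and CG11034 (-0.58, adjusted p = 0.24) did not pass. The lysozyme LysX and the sterol-binding Npc2e had departures of -1.61 and -1.59, neither of which was called without females 1 and 3. Of 50 named genes called in females, 29 were not called without these arrays, and of 57 named departures 22 were not. These losses have 2 sources, smaller differences and fewer arrays, which the counts do not separate. The departure of Gnmt shrank from -1.61 to -0.98, whereas those of dj (0.53 with and without) and Mst84Db (0.47 and 0.48) lost their calls at an unchanged size.

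Among genes lower in H07 females, CG32243 read 7.99, 8.45, 7.95 and 8.08 against 7.97, 9.0 and 10.11 in the other females. It fell by 0.98 ± 0.12 in females, with a difference of -0.14 ± 0.10 in males. CG32833 fell by 0.80 ± 0.17 and the pseudouridine synthase gene Pus7 by 0.61 ± 0.06. CG40378 averaged 4.87 ± 0.42 in H07 females and 3.36 ± 0.07 in H07 males. Its female difference was -1.43 ± 0.22, but H13 females were lower still (4.46). The small heat shock gene Hsp27 read 12.13, 12.87, 11.53 and 12.20 in H07 females against 12.23, 12.96 and 13.32. It fell by 0.75 ± 0.11 in females and by 0.58 ± 0.08 in males, the female difference being -0.40 without arrays 1 and 3 (adjusted p = 0.25). The maltase Mal-B1 differed by 0.71 ± 0.26 in males (adjusted p = 0.035) and -0.56 ± 0.10 in females. Its male call was lost without male 1, 2 or 3 (adjusted p = 0.089 to 0.145) and its female call without females 1 and 3 (-0.52, adjusted p = 0.12).

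**Figure D4:**
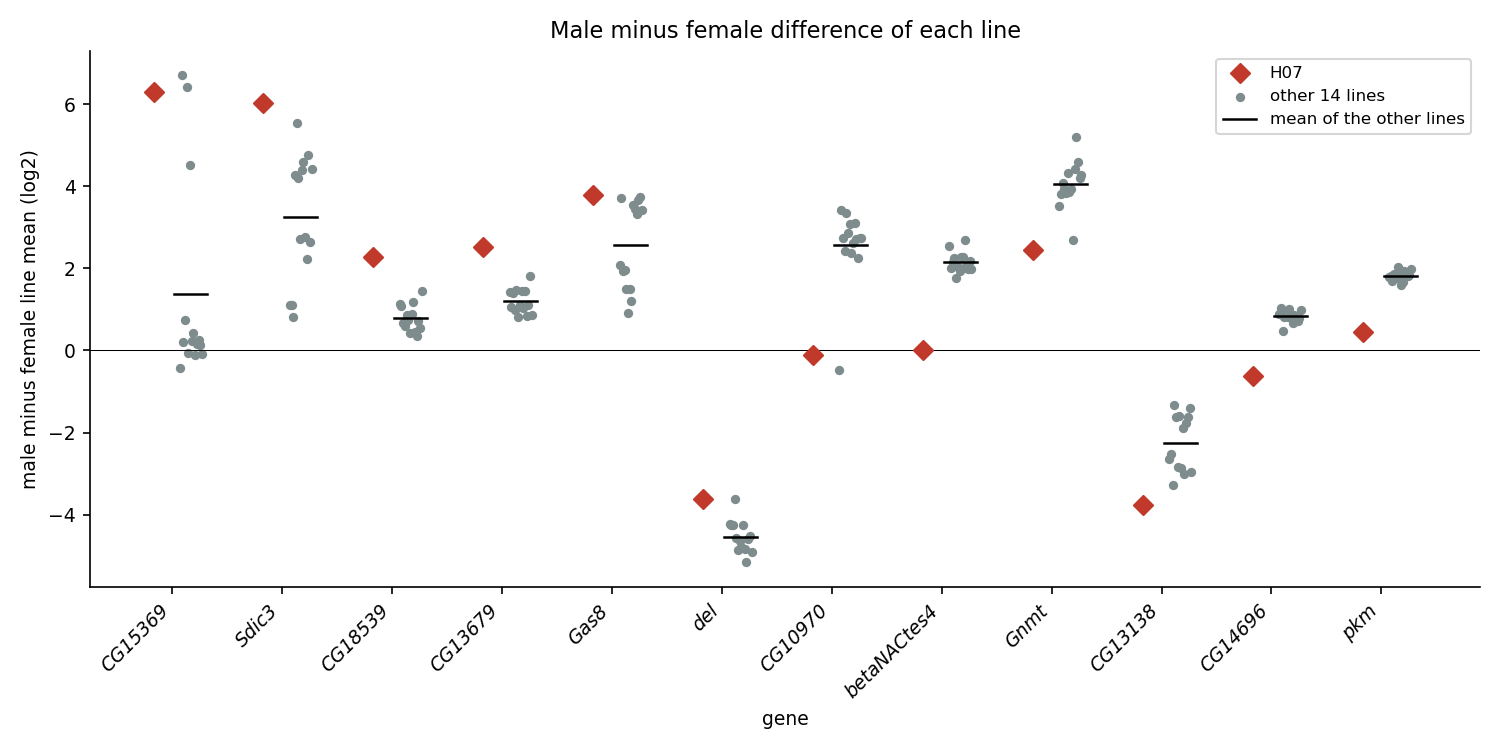
Male minus female difference of the line means (log2) for 12 genes, with H07 as a diamond left of the 14 other lines. H07 lay among a few high lines for CG15369, with H09 at the low end for CG10970, and apart from all other lines for betaNACtes4, CG14696 and pkm.

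Of the 9 female probe sets whose H07 arrays did not overlap the other lines, 6 were higher and 3 lower. They were CG18179, CG14696, tkv, be (1.04 ± 0.14), RNaseX25 (0.44 ± 0.07) and a probe set with no gene symbol (1.19 ± 0.09) on the higher side, and CG9896 (-0.33 ± 0.06), Dtd (-0.54 ± 0.05) and EMRE (-0.24 ± 0.04), a regulator of the mitochondrial calcium uniporter, on the lower side. All but tkv were called in males with the same sign, the male call of CG14696 being lost without male 1 or 4.

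Sperm genes were mostly higher in H07 males. Of 54 spermatogenesis and sperm genes measured, 31 were higher and 1 lower (34 and 0 with centred arrays), with a median difference of 0.25 against 0.0030 over all probe sets. The share higher was 57.4%, against 10.2% of all probe sets. The mean level of the list was 9.64, 9.82, 9.64 and 9.81 in the H07 males, against 9.22, 9.48 and 9.68 in the other males, so that males 2 and 4 were above all other males and males 1 and 3 within their upper range. The meiotic arrest regulators can and aly were 0.46 ± 0.11 and 0.41 ± 0.08 higher, the sperm tail transcripts Mst84Db and Mst87F 0.31 ± 0.06 and 0.27 ± 0.07, the protamine ProtB 0.34 ± 0.09, Mst77F 0.20 ± 0.06 and dj 0.48 ± 0.16, whose call was lost without male 1 or 4. The member that fell was ProtA (-0.18), the partner of ProtB. No member was called in females, where these transcripts are near the lower end of the scale, and 15 of the 54 had a called positive departure and 1 a negative one (3 and 0 without females 1 and 3). Departures were thus called for 29.6% of the list, against 13.6% of all probe sets. The median departure of the list was 0.28 with all arrays and 0.26 without females 1 and 3, so the fall in calls came with little change in size.

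Over the whole array, probe sets were grouped by their male minus female difference in the other 14 lines, which also form the other side of each comparison. Of 1025 probe sets at least 16-fold higher in males, 469 were higher and 70 lower in H07 males (591 and 48 with centred arrays), with a median of 0.17. These were 45.8% and 6.83%, against 10.2% and 13.8% of all probe sets. The 2651 probe sets 2- to 16-fold higher in males held 488 higher and 496 lower (685 and 351 centred). Of 3548 probe sets 2- to 16-fold higher in females, 220 were higher and 1003 lower in H07 males (371 and 627 centred), which is 6.2% and 28.3%. The 288 probe sets at least 16-fold higher in females held 42 higher and 33 lower (58 and 23 centred). In H07 females the probe sets 2- to 16-fold higher in females held 251 lower and 46 higher, and those 2- to 16-fold higher in males held 160 higher and 23 lower. These female counts were 14 and 6, and 6 and 8, without females 1 and 3.

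Accessory gland genes, whose products pass to the female with the sperm, were lower where called. Of 33 measured, none was higher and 11 were lower in H07 males (0 and 5 with centred arrays), with a median of -0.11. The share lower was 33.3%, against 13.8% of all probe sets, of which 1613 of 18769 were lower with centred arrays. lectin-46Ca, part of the network through which sex peptide binds sperm, read 9.47, 9.42, 9.65 and 9.37 in H07 males against 9.22, 10.01 and 10.42 and fell by 0.48 ± 0.09, its partner lectin-46Cb by 0.31 and CG17575 by 0.33 ± 0.07. The serpin Acp76A differed by -0.40 ± 0.11, a call that was lost without male 4 (adjusted p = 0.080). The odorant-binding protein Obp56i was lower without overlap, with 7.67, 7.87, 7.82 and 8.08 in H07 males against 8.24, 8.91 and 9.49 (-1.04 ± 0.08). Among the 47 odorant-binding proteins 6 were higher and 7 lower in males (12.8% and 14.9%), near the shares of all probe sets (10.2% and 13.8%). Obp44a was higher in males (0.24 ± 0.04), where all 4 H07 arrays were above the other lines.

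Yolk and eggshell transcripts in H07 males were at the upper part of their range. The mean level of the 5 female markers was 6.43, 6.99, 7.46 and 7.67 in H07 males, against 4.89, 5.84 and 8.25 in the other males. Yp1 was at 6.84, 8.24, 8.93 and 9.40 against 3.70, 6.10 and 9.84, with a difference of 1.83 ± 0.81 that did not pass (adjusted p = 0.095). Of 21 yolk and eggshell genes 4 were called higher in H07 males and 1 lower (19.0% and 4.76%, against 10.2% and 13.8% of all probe sets). The chorion genes Cp15 (1.58 ± 0.54) and Cp36 (1.08 ± 0.39) and the yolk gene Yp2 (0.96 ± 0.37) lost their calls without male 2 or 3 (Cp15) and without male 2, 3 or 4 (Cp36 and Yp2). Of 35 oogenesis genes 8 were higher and 3 lower in H07 males (22.9% and 8.57%), with del (0.71 ± 0.13), aub (0.54 ± 0.11) and exu (0.53 ± 0.10) leading. The first 2 act in the piRNA pathway and exu in the placing of maternal RNA. The part of female RNA in these levels was not tested.

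**Figure D5:**
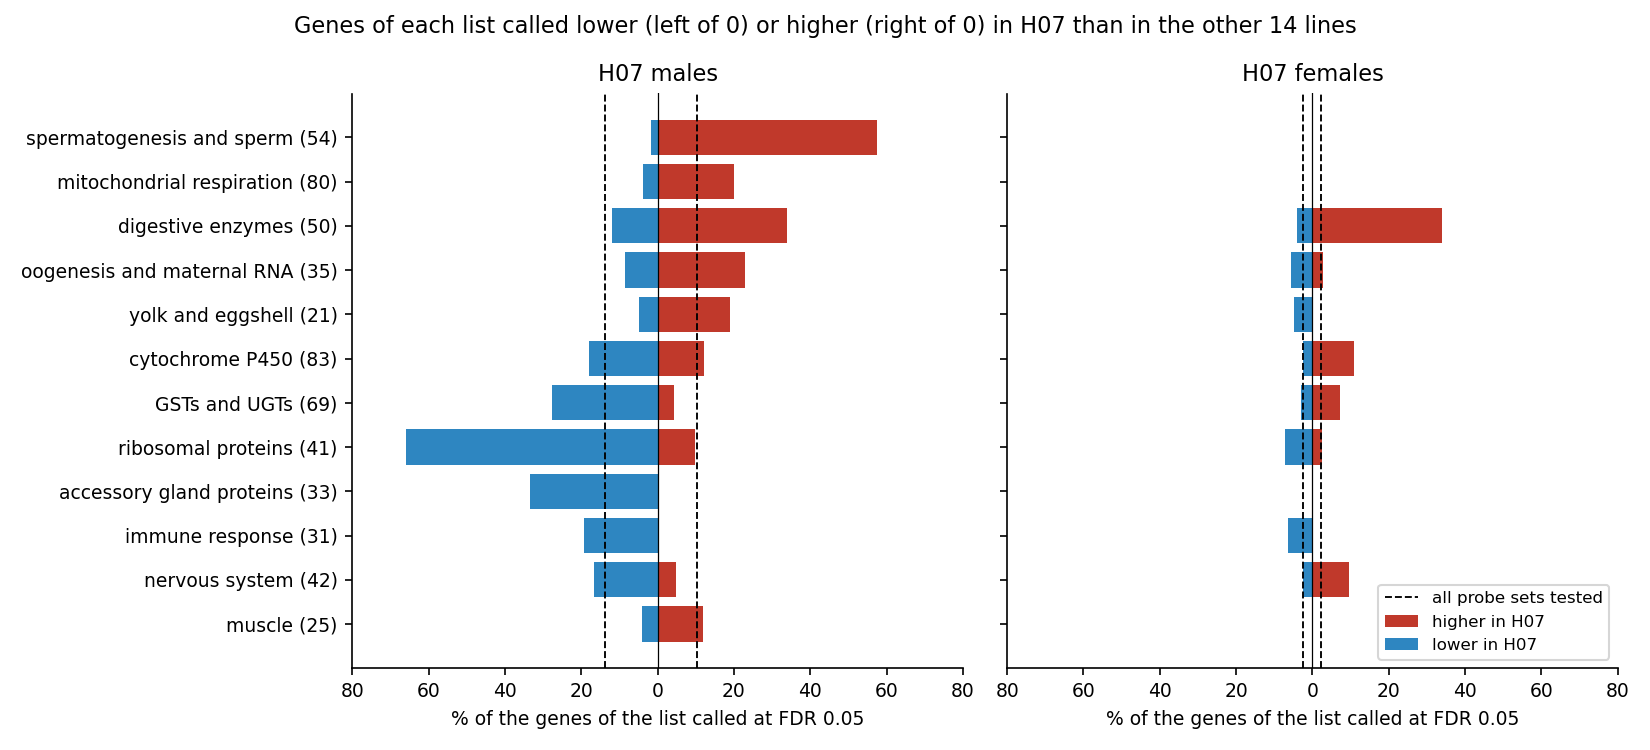
Share of the genes of 12 lists called higher or lower in H07 males and in H07 females, in percent; dashed lines give the share of all probe sets called in that direction. Sperm genes were mostly higher and ribosomal protein genes mostly lower in H07 males, and 17 of 50 digestive enzymes were called higher in each sex (1 of 50 in females without arrays 1 and 3).

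Ribosomal protein genes were mostly lower in H07 males, by small amounts. Of 41 measured, 27 were lower and 4 higher (17 and 5 with centred arrays), with a median of -0.15. The share lower was 65.9%, against 13.8% of all probe sets. RpL32 read 13.37, 13.44, 13.48 and 13.43 in H07 males against 13.44, 13.65 and 13.82, RpS20 13.05, 13.12, 13.13 and 13.16 against 13.15, 13.41 and 13.62. H07 males lay at the lower edge of the other males for RpL32 and RpS20, which fell by 0.23 ± 0.03 and 0.29 ± 0.04. RpLP0-like, a ribosome assembly gene related to RpLP0, was lower without overlap (-0.60 ± 0.07). The 4 higher genes were RpS5b, RpS28-like, RpL37-2 and RpS28a, paralogues of other ribosomal protein genes. In females 1 was higher and 3 lower, and the departure was negative for 19 and positive for 3 (5 and 5 with centred arrays). Departures were called for 53.7% of the list, against 13.6% of all probe sets.

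Of 80 genes of mitochondrial respiration, 16 (20.0%) were higher and 3 (3.75%) lower in H07 males (34 and 3 with centred arrays), against 10.2% and 13.8% of all probe sets. The members with the largest differences were paralogues read mainly in males. COX6AL2 was 0.41 ± 0.07 and ATPsynbetaL 0.46 ± 0.09 higher, whereas UQCR-11L read 9.56, 9.77, 9.63 and 9.80 in H07 males against 9.75, 10.28 and 10.62 and fell by 0.55 ± 0.06.

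Glutathione S-transferases and UDP-glycosyltransferases, enzymes that conjugate foreign and endogenous compounds, were lower in H07 males in 19 of 69 genes and higher in 3 (17 and 8 with centred arrays), or 27.5% and 4.35% against 13.8% and 10.2% of all probe sets. The epsilon class on 2R held 8 of the genes that were lower. GstE1 read 10.54, 10.91, 11.08 and 10.99 in H07 males against 10.20, 11.66 and 12.44, and fell by 0.72 ± 0.12. GstE3, GstE4, GstE5, GstE6, GstE9, GstE10 and GstE11 fell in males by 0.39, 0.49, 0.66, 0.45, 0.25, 0.57 and 0.41. These genes lie together and share sequence, so they are not separate observations. In females only GstE11 was called (-0.31 ± 0.09). Ugt49B1 fell by 0.71 ± 0.07 in males, and Ugt302E1 was higher in females (0.93 ± 0.18, and 0.41 without arrays 1 and 3). Over the 69 genes the departure was negative for 16 and positive for 2 (3 and 1 without females 1 and 3), or 26.1% called against 13.6% of all probe sets.

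The shares of immune (19.4%), stress (21.1%) and nervous system genes (21.4%) called in males were below the 24.1% of all probe sets. With 1 probe set per gene, 4047 of 11981 genes were called in males. Of 31 immune genes 6 were lower and none higher in H07 males (3 and 0 with centred arrays), or 19.4% lower against 13.8% of all probe sets. With 1 probe set per gene 2331 of the 11981 genes were lower, a share near that of the immune genes. PGRP-SC2, an amidase that degrades peptidoglycan, fell by 0.84 ± 0.14 and dl, the Rel factor dorsal, by 0.44 ± 0.07. TotC, a Turandot stress gene, read 8.13, 6.99, 7.01 and 6.70 in H07 males against 7.27, 8.91 and 11.42 and fell by 1.80 ± 0.42, whereas the metallothionein gene MtnD was higher (1.23 ± 0.19). Of 42 nervous system genes 7 were lower and 2 higher in males (2 and 4 centred) and 4 were higher and 1 lower in females. In males 16.7% were lower and 4.76% higher, and in females 11.9% were called, against 4.55% of all probe sets. The nervous system list had 10 negative departures with all arrays (23.8%, against 7.73% of all probe sets) and 0 without female 3, the array with high nervous system and muscle values. In males 3 of 25 muscle genes were higher and 1 lower (9 and 0 centred), led by Act79B (0.28 ± 0.06), Mlc1 (0.27 ± 0.04) and TpnC41C (0.26 ± 0.05).

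Of 11 clock genes, Pdp1 (-0.51), cyc (-0.28) and Pdf (-0.25) were lower in H07 males, Pdp1 losing its call without male 2 (-0.30, adjusted p = 0.10). They made up 27.3% of the clock list, against 13.8% lower among all probe sets. Of 12 cuticular hydrocarbon genes 2 were lower, of 7 Y-linked genes 2, and of 18 dosage compensation and sex determination genes 3, with 1 (tra2) higher. Among these, kl-2 and mle lost their calls without any 1 of the 4 males and ORY without male 1 or 3. The other 2 probe sets of kl-2 differed by -0.044 and -0.094 in males and were not called. The share lower was 16.7% of the hydrocarbon genes, 28.6% of the Y-linked genes and 16.7% of the dosage compensation and sex determination genes, against 13.8% of all probe sets. With 1 probe set per gene 2331 of 11981 genes were lower, a larger share than the 16.7%. The hydrocarbon elongase gene Elo68alpha fell by 0.57 ± 0.12 and msl-1, a subunit of the dosage compensation complex, by 0.34 ± 0.09, the second call being lost without male 1 (adjusted p = 0.085). Of 105 cuticular protein genes 7 were higher and 7 lower (6.67% each), below the 10.2% and 13.8% of all probe sets. Cpr62Ba was higher without overlap, with 5.38, 5.27, 5.40 and 5.40 in H07 males against 4.19, 4.53 and 4.94 (0.83 ± 0.07), Cpr62Bb was higher in males (0.74) and in females (0.49, and 0.42 without arrays 1 and 3, adjusted p = 0.36, the call being lost without female 3 alone), and Cpr72Ec was lower in both (-1.15 and -0.50).

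By chromosome arm, the share of probe sets called in H07 males ran between 27.1% on 3R and 32.2% on 2L, against 28.9% of all probe sets with a position. The X, at 29.5%, lay within that range, and 3.2% of its probe sets were shared by the sexes, against 2.31% of all with a position. Chromosome 4, which was not part of the cloned haplotype, had 22 lower and 1 higher of 82 probe sets in males (12 and 1 with centred arrays), with a median of -0.15, and 1 lower and 1 higher in females. The male shares were 26.8% lower and 1.22% higher, against 16.8% and 12.2% of all probe sets with a position. Its total share called in males was 28.0%. Rnf11 led with 7.01, 7.50, 7.64 and 7.16 in H07 males against 7.38, 8.33 and 9.72 (-1.10 ± 0.16). The transcription factors Mitf and ci fell by 0.43 ± 0.09 and 0.38 ± 0.08.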

How the data were processed

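The authors hybridised RNA of whole flies to Affymetrix Drosophila Genome 2.0 arrays and made the deposited log2 values by RMA (affy), that is background correction, quantile normalization between arrays and median polish. These values were used as they stand for all 120 arrays. The table holds 18952 probe sets, and after removal of 183 controls the tests ran on 18769. Through the platform annotation and RefSeq symbols, 13646 probe sets had 1 symbol, 402 several and 4721 none. Arms and neighbours came from a RefSeq table of another build than any the files name, so no position is printed. The depth of an array has no count, and precision is limited by the 4 arrays of a line and sex.

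limma 3.58.1 in R 4.3.3 was fitted with a mean for each line, per sex for the differences within a sex and over 30 line and sex groups for the departure. Each contrast was H07 minus the unweighted mean of the other 14 line means, with Benjamini-Hochberg adjustment over all 18769 probe sets and an FDR of 0.05. All adjusted p-values are from limma, two-sided, and do not include the spread between lines. The H07 differences in males, in females and in the departure share arrays, and so do the comparisons of each line. Recovery was counted in simulated data on 18769 probe sets. Of 100 probe sets changed by 0.5 on the log2 scale, 93 were recovered in males, 91 in females and 71 for the departure. Of 100 changed by 1, 100, 98 and 95 were recovered, with 9, 9 and 10 false calls. Whether these counts hold where arrays of a line depart together, as some H07 females did, was not tested. Nor do the simulated counts cover the spread between lines.

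The rule for naming took, among genes with 1 symbol and by the probe set with the highest mean, the 8 largest differences per sex and direction outside the range of the other lines, the 6 largest shared and the 6 largest departures per direction, up to 3 called members of each of 24 lists, and the sex markers, 117 genes in all. The members and lists were chosen with earlier results of these data known. Outside the rule, and chosen after their values were seen, are LManIV, LManV, LManVI, the GstE genes other than GstE1, Cyp6a9, Cyp6g1, CG18404, CG18540, CR11023, CG8329, Rnf11, Mitf, ci, Jon25Bi, Jon65Ai, Jon99Ci, Cht9, RpL32, RpS20, aly, can, Mst77F, ProtB, tkv and the other female probe sets without overlap, and the list members printed with a difference alone. Alternatives covered the scaling, dim probe sets, the replicate number, the variance model, array weights, the threshold, the unit of replication, the other lines and each H07 array. Leaving out females 1 and 3 together was added after seeing the data.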

Additional observations from a re-analysis of the deposited data

Results flagged for a closer look

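The difference of H07 from the other lines itself differed between the sexes for 57 of the named genes, as tested by the departure of the male minus female difference (limma, FDR of 0.05, log2). The departure was positive, that is the H07 difference was higher in males than in females, for CG15369 (4.93), Sdic3 (2.77), CG18539 (1.48), CG40378 (1.42), CG13679 (1.33), Mal-B1 (1.28), CG15605 (1.27), CG34316 (1.22), Gas8 (1.21) and CG18179 (1.11). Smaller positive departures were those of CG1304 (1.09), del (0.90), Ser6 (0.88), CG32243 (0.84), CG8661 (0.81), CG32833 (0.63), aub (0.60), Cpr62Ba (0.57), exu (0.56), dj (0.53), Clk (0.53), Mst84Db (0.47), ATPsynbetaL (0.44), COX6AL2 (0.44) and Pus7 (0.39). It was negative for CG10970 (-2.69), betaNACtes4 (-2.14), Gnmt (-1.61), LysX (-1.61), Npc2e (-1.59), CG13138 (-1.52), Nazo (-1.47), CG14696 (-1.46), pkm (-1.36), ninaD (-1.27), CanA-14F (-1.23) and fit (-1.22). Smaller negative departures were those of Cbp80 (-1.16), CG8157 (-1.14), Obp56i (-1.12), PGRP-SC2 (-1.08), CG11034 (-0.98), Obp8a (-0.92), l(2)gl (-0.91), Ugt302E1 (-0.86), UQCR-11L (-0.80), Elo68alpha (-0.76), Cpr72Ec (-0.65), Ugt49B1 (-0.63), gro (-0.60), Gld (-0.60), AstC (-0.50), RpLP0-like (-0.49), GstE1 (-0.49), lectin-46Ca (-0.46), Cyp6a17 (-0.40) and msl-1 (-0.33). Without H07 females 1 and 3, 22 of these 57 departures did not pass. The other probe sets of CG13679 differed by 0.20 and 0.08 in males and by -0.066 and -0.20 in females, and none of these differences passed.

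In 9 sets of 4 H07 arrays the highest or lowest array lay far from the other 3 by Dixon's criterion at the 95% level, which chance meets in about 1 in 20 sets. With 117 named genes in 2 sexes, 9 such sets can arise by chance. Among males these were the highest values of AstC (10.36), CG34034 (8.62) and CG40378 (3.46) and the lowest of CG8157 (5.26) and msl-1 (5.78). Among females they were the highest values of CG12171 (10.18) and Uhg3 (9.52) and the lowest of Npc2a (10.86) and RpLP0-like (9.61).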

How the results depend on the processing

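At an FDR of 0.001 the counts were 1496 in males, 157 in females, 408 departures and 75 shared, and at 2-fold or more 91, 33, 84 and 11. With line means as the unit, which tests against the spread between lines, they were 91, 13, 39 and 7, and 16 of the 197 named values called were called there too. Leaving out 1 H07 array gave 3078 to 3962 calls in males, 253 (without female 3) to 1688 (without female 2) in females, 1305 to 3050 departures and 147 to 493 shared. Without females 1 and 3 there were 66 calls in females, 620 departures and 45 shared. With the replicate number as a block the counts were 5210, 1064, 3157 and 448, each within 1.5 times the count without it. The median correlation of same-numbered arrays was 0.124 in males and 0.0745 in females, against -0.042 and -0.022 for different numbers, and 57.1% and 43.8% of same-numbered pairs were over 0.1, against 13.3% and 17.2%. The paper processed its arrays in batches of 15, which is also the number of lines, and fitted batch as a random effect. The labels do not say that a replicate number marks a shared batch. The numbers were not used to pair the samples, and the main fits held no batch term. Not every same-numbered pair was over 0.1. The other alternatives (centring, a second quantile normalization, dim probe sets left out, another variance model, array weights, 1 probe set per gene, and the comparison without H10 and P26) also kept each count within 1.5 times. None of the 197 called values of named genes turned its sign. The thresholds, line means as the unit, the choice of probe sets and the variance models leave the difference itself unchanged. Those alternatives could therefore not turn a sign, and centring, which moves all differences of a comparison by the same small amount, could hardly do so.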
